A study of Mus musculus with 2 samples.

Results

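Glycolysis and lactate export were followed through 10 genes: Slc2a1, Hk1, Hk2, Pfkl, Pfkp, Aldoa, Pgk1, Pkm, Ldha and Slc16a3. They were picked as a pathway, by gene symbol, from the 55487 genes that the files list, with earlier results of these data known, and all 10 were detected. Aldoa stands on 2 rows of the files, whose counts were added, so the 10 genes take 11 rows. On build GRCm38 the genes lie on 8 chromosomes, Hk1 at chr10:62268855-62379908 (minus strand), Hk2 at chr6:82725025-82774454 (minus strand), Ldha at chr7:46841475-46855627 (plus strand) and Slc16a3 at chr11:120948480-120960868 (plus strand). The KO group is 1 library from mice of the conditional model Setdb1-cKO, and the WT group is 1 library from wild-type mice. Setdb1 encodes a histone methyltransferase that deposits repressive marks on chromatin, and by its title the series concerns SETDB1 in muscle stem cells of regenerating muscle. Mice of both groups were 8 to 12 weeks old, and in both the cells came from injured tibialis anterior muscle, a muscle of the lower leg. Collagenase II and dispase released the cells, which were stained with Hoechst and propidium iodide, sorted, and processed with the 10x Genomics 3′ kit, version 2. Neither the labels nor the design text gives the number of mice pooled, how the muscle was injured and when it was taken, or which Cre line deletes Setdb1.

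Glycolysis splits glucose into pyruvate in the cytosol and yields ATP without oxygen. Glucose enters through transporters such as Slc2a1 (GLUT1), hexokinases trap it as glucose phosphate, phosphofructokinase commits it to breakdown, and aldolase, phosphoglycerate kinase and pyruvate kinase carry it to pyruvate. Lactate dehydrogenase turns pyruvate into lactate, and Slc16a3 (MCT4) carries lactate out of the cell. Quiescent muscle stem cells are known to rely largely on oxidation of fatty acids and pyruvate, and activated and dividing ones to use more glycolysis. Hk1 and Hk2 catalyse the same first step. Hk2 is known as the insulin-responsive and hypoxia-inducible hexokinase of muscle, and Hk1 as the form most tissues share.

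Many glycolytic genes carry the core of the hypoxia response element, the sequence bound by hypoxia-inducible factors (HIF), near their starts. RefSeq promoters of build GRCm38.p6, each 300 bases around a gene's start, were available for all 10 genes, 15 promoters in all. The letters ACGTG or GCGTG, searched on both strands and allowed to overlap, stood in 12 of the 15 promoters and in at least 1 promoter of each of the 10 genes. Of the 32851 promoters in the table, 43.8% held either word, 19.6% held ACGTG and 32.4% held GCGTG. Of the 15 promoters, 9 held ACGTG. A match is a run of letters and does not show that a factor binds there. The promoters of the 4 genes whose levels differed most between KO and WT myogenic cells are shown 5′ to 3′ on the gene's strand, with each match in either orientation in capitals. They lie at chr10:62379859-62380158 and chr10:62340372-62340671 (Hk1, minus strand), chr6:82774405-82774704 (Hk2, minus strand), chr7:46845554-46845853 (Ldha, plus strand) and chr11:120948817-120949116 (Slc16a3, plus strand).
Hk1 promoter 1: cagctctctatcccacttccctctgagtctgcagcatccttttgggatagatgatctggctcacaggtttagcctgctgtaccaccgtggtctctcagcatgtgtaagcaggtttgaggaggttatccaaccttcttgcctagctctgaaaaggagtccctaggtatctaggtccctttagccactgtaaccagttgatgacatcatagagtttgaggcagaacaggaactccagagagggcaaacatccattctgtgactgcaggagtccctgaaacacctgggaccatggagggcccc
Hk1 promoter 2: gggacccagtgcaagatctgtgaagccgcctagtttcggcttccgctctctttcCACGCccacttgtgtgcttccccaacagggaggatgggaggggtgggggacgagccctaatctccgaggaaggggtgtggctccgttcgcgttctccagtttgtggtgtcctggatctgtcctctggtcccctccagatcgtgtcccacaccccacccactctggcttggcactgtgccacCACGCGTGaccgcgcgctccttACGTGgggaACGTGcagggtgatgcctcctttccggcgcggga
Hk2: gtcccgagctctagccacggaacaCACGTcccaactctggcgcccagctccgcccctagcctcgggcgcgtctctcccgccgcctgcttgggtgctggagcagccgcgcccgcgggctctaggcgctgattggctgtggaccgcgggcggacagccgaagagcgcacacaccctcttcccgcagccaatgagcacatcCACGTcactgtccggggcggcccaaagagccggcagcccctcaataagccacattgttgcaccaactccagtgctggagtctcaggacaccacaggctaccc
Ldha promoter 1: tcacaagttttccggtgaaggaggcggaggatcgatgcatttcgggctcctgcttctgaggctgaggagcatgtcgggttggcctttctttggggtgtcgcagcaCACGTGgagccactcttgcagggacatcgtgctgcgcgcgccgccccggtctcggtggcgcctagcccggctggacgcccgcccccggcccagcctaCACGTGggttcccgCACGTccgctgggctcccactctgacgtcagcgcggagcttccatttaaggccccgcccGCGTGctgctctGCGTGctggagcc
Slc16a3: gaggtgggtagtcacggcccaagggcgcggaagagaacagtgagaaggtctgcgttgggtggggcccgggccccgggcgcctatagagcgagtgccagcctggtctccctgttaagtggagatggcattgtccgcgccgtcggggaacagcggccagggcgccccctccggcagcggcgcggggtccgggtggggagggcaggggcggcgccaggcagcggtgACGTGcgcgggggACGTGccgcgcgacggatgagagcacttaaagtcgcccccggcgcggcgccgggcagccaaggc
The Hk1 promoters differed: the upstream one held 0 matches, and the downstream one held 2 of ACGTG and 3 of GCGTG. Hk2 and Slc16a3 held 2 of ACGTG and 0 of GCGTG each, and the first Ldha promoter held 5 of ACGTG and 2 of GCGTG. Each CACGTG in that Ldha promoter reads as ACGTG on both strands and counts as 2 matches, so the 5 matches stand at fewer places. A second Ldha promoter, at chr7:46846832-46847131, held 0 of ACGTG and 2 of GCGTG and is not shown. Which Hk1 promoter was in use cannot be read from tags at the 3′ end of transcripts.

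The files gave whole numbers of UMIs (unique molecular identifiers, which count each captured transcript once) for every barcode. Barcodes with at least 5000 UMIs were taken as cells, which left 6411 KO and 6345 WT cells after removal of likely doublets, at a median depth of 12050 UMIs in KO and 12092 UMIs in WT, with 3056 genes in KO and 2953 genes in WT. Only 6 cell barcodes stood in both libraries. A sub-cluster of myogenic cells led by C1q genes (64 KO and 13 WT cells) was kept out of the myogenic-like class. Cells were clustered together and clusters named from marker genes, with "like" marking a name given this way. The myogenic-like class held 361 KO and 670 WT cells, of which stem-state cells (Pax7, Myf5) made up 40.2% and 74.8%, cycling cells 41.3% and 18.8%, and differentiating cells (Myog, Mymk) 18.6% and 6.42%. Levels are CPM, a gene's count per 1e6 UMIs summed over the cells of a class, with 95% Poisson intervals. With 1 library per group there is no replicate check and no test: all intervals cover counting error only and say nothing of the spread between mice. A gene is called higher or lower where the KO/WT ratio of CPM lay past 1.5-fold with its interval apart from 1. Medians over lists use log2 ratios of CPM + 5.

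Setdb1 itself had 71 UMIs and 8.43 CPM in KO myogenic-like cells and 231 UMIs and 17.7 CPM in WT ones, a ratio of 0.477 (0.36 to 0.625). It was at 8.75 CPM in KO and 15.3 CPM in WT stem-state cells, and at 9.67 CPM in KO and 23.1 CPM in WT cycling cells. In phagocyte-like cells it was at 20.3 CPM in KO and 16.1 CPM in WT. Tags at the 3′ end of a transcript with an exon removed would still be counted, so the remaining Setdb1 tags do not measure intact transcripts.

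In myogenic-like cells, 5 of the 10 genes were higher in KO (Hk1, Pfkl, Pfkp, Ldha and Slc16a3), 1 was lower (Hk2), and 4 did not pass 1.5-fold (Slc2a1, Aldoa, Pgk1 and Pkm). Among all 13368 genes compared there, 8.6% were higher and 8.96% were lower. The median log2 ratio over the 10 genes was 0.46, beside 0.02 over all genes. Summed, the 10 genes took 2641 CPM in KO and 2068 CPM in WT cells, a ratio of 1.28 (1.25 to 1.3). The sum was 2226 CPM in KO and 1807 CPM in WT stem-state cells (1.23, 1.19 to 1.27). In cycling cells it was 2698 CPM in KO and 2533 CPM in WT (1.06, 1.04 to 1.10). The KO cells were deeper, with a median of 20817 UMIs against 17315 in WT, and their median mitochondrial share was 1.41% against 1.63%. Their state make-up differed as given above, so values within states are given for each of the 10 genes. The part of depth and of mitochondrial share in these differences was not tested.

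**Figure D1:**
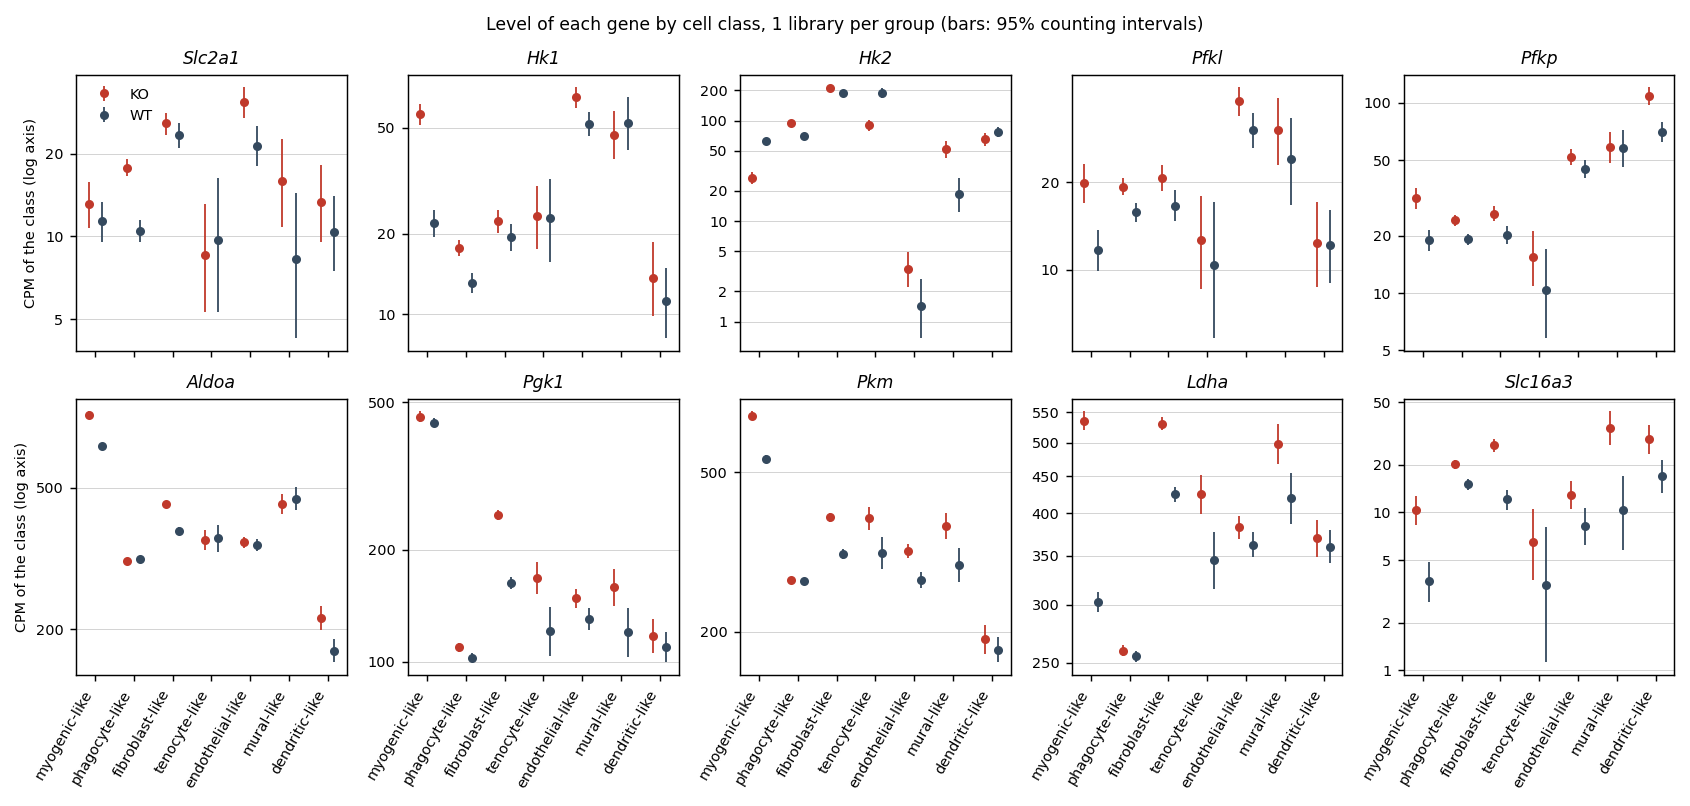
CPM of each of the 10 genes (log axis) in each cell class, with KO points left of WT points and bars for 95% Poisson intervals; each point is 1 library. Aldoa, Pgk1 and Pkm were highest in myogenic-like cells of both libraries, and Hk2 ran from 208 CPM in KO fibroblast-like cells to 3.37 CPM in KO endothelial-like cells.

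The glucose transporter did not pass 1.5-fold. Slc2a1, the transporter for basal glucose entry, had 110 UMIs and 13.1 CPM in KO myogenic-like cells and 148 UMIs and 11.3 CPM in WT ones, a ratio of 1.15 (0.893 to 1.49). In stem-state cells it was at 12.1 CPM in KO and 11 CPM in WT, and in cycling cells at 12.3 CPM in KO and 13.5 CPM in WT. Both intervals held 1. Over the other classes Slc2a1 was highest in KO endothelial-like cells (30.8 CPM) and in WT fibroblast-like cells (23.4 CPM), each with an interval that overlapped the next class.

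The hexokinases differed in opposite directions. Hk1 had 473 UMIs and 56.2 CPM (51.2 to 61.5) in KO myogenic-like cells and 287 UMIs and 22.0 CPM (19.5 to 24.7) in WT ones, a ratio of 2.56 (2.20 to 2.97). Hk2 had 225 UMIs and 26.7 CPM (23.3 to 30.4) in KO cells and 824 UMIs and 63.0 CPM (58.8 to 67.5) in WT cells, a ratio of 0.424 (0.364 to 0.492). The KO and WT intervals did not overlap for either gene. Free RNA, bounded by markers of other classes, could give at most 0.473 CPM of Hk1 in KO cells and 0.549 CPM of Hk2 in WT cells. Hk1 made up 67.8% (64.2 to 71.2) of the Hk1 and Hk2 UMIs of KO myogenic-like cells and 25.8% (23.3 to 28.5) of those of WT cells. UMIs at the 3′ end count each captured transcript once whatever its length, but capture can differ between genes, so such shares are compared between libraries.

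The hexokinase difference was present within the stem and cycling states. In stem-state cells Hk1 was at 55.4 CPM in KO and 21.5 CPM in WT (ratio 2.57, 2.04 to 3.23), and Hk2 at 36.7 CPM in KO and 78.2 CPM in WT (0.469, 0.371 to 0.587). The Hk1 share there was 60.2% in KO and 21.6% in WT. In cycling cells Hk1 was at 57.6 CPM in KO and 27.5 CPM in WT (2.09, 1.64 to 2.69). Hk2 was at 27.6 CPM in KO and 38.6 CPM in WT cycling cells (0.714, 0.551 to 0.925), which did not pass 1.5-fold, and the Hk1 share was 67.6% in KO and 41.6% in WT. The log2 ratio of Hk2 was lower in stem-state than in cycling cells by a difference of -0.61 (-1.09 to -0.12), whereas that of Hk1 differed by 0.30 (-0.17 to 0.77). Differentiating cells were too few to compare (67 KO and 43 WT cells): Hk1 took 102 of 125 UMIs in KO and 9 of 33 in WT, shares of 81.6% and 27.3%. With the states weighted equally, the log2 ratio over the class was 1.33 for Hk1 and -0.75 for Hk2, beside 1.18 and -1.10 with the states as they were. Equal weights, here and below, give the few differentiating cells as much weight as the stem or the cycling state.

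**Figure D2:**
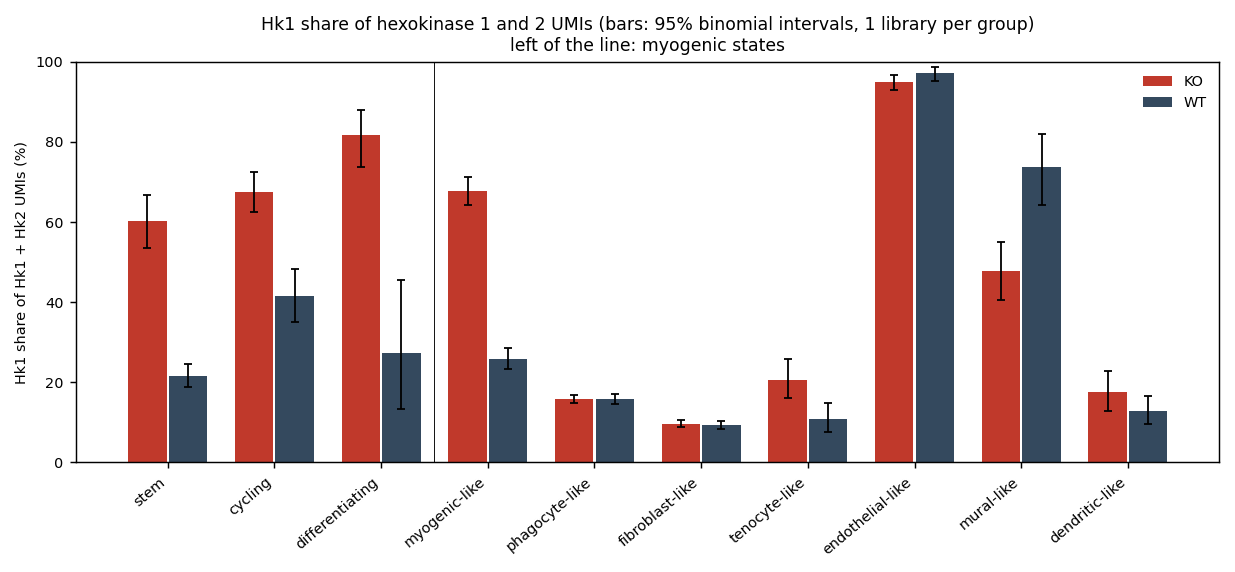
Share of Hk1 in the summed Hk1 and Hk2 UMIs (percent, axis from 0) by myogenic state (left of the line) and cell class, KO bars left of WT bars, with lines for 95% Clopper-Pearson intervals. Myogenic-like cells sit at 67.8% in KO and 25.8% in WT, while phagocyte-like cells sit at 15.8% in both libraries.

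Detection in single cells was compared at equal depth. With every cell thinned to 5000 UMIs, 20.5% of KO and 6.87% of WT myogenic-like cells had a UMI of Hk1 without one of Hk2, and 7.48% of KO and 18.8% of WT cells had Hk2 without Hk1. A UMI of both was found in 2.77% of KO and 2.24% of WT cells, and neither in 69.3% of KO and 72.1% of WT cells. Without thinning, 30.7% of KO and 43.7% of WT myogenic-like cells had a UMI of Hk2. In endothelial-like cells, which nearly lack Hk2, the thinned share with an Hk2 UMI was 0.760% in KO and 0.618% in WT, at median unthinned depths of 9882.5 UMIs in KO and 8965 UMIs in WT, against 10.2% of KO and 21% of WT myogenic-like cells.

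**Figure D3:**
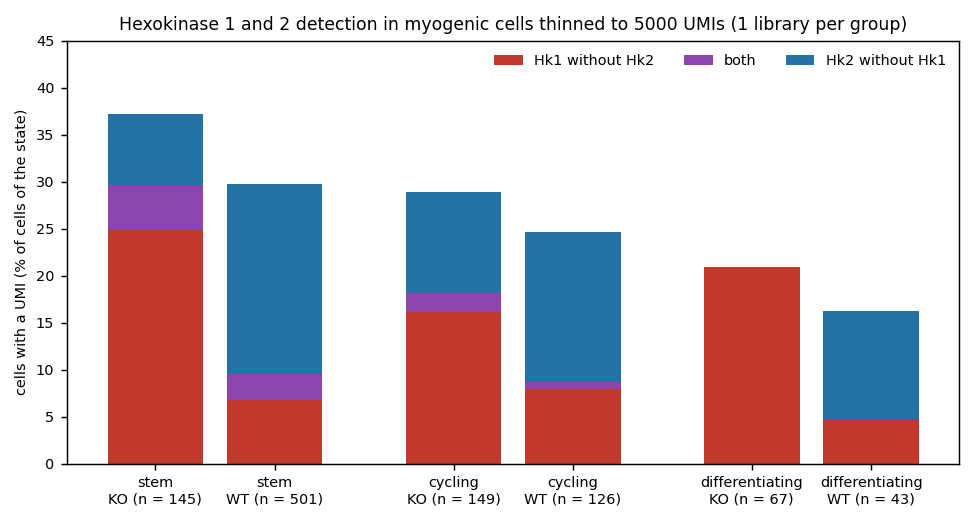
Stacked bars of the percent of cells of each myogenic state with a UMI of Hk1 without Hk2, of both, or of Hk2 without Hk1, after 1 random thinning to 5000 UMIs per cell, KO left of WT, with no error drawn. The part with Hk1 without Hk2 is larger in KO than in WT in each state, and differentiating cells (67 KO, 43 WT) were too few to compare.

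Hk1 overlaps an antisense gene, Hk1os, and the sources used here do not give the strand setting of the counting. If strand was not used, reads of Hk1 and Hk1os cannot be told apart. The files list Hk1os with 17 UMIs in KO and 48 UMIs in WT myogenic-like cells, below the 473 and 287 UMIs of Hk1.

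The phosphofructokinase genes, which encode subunits of the committing enzyme, were both higher. Pfkl, the liver-type subunit, had 167 UMIs and 19.8 CPM in KO and 153 UMIs and 11.7 CPM in WT myogenic-like cells, a ratio of 1.69 (1.35 to 2.12). Pfkp, the platelet-type subunit, had 265 UMIs and 31.5 CPM in KO and 247 UMIs and 18.9 CPM in WT, a ratio of 1.67 (1.39 to 1.99). Pfkp was at 24.2 CPM in KO and 16.1 CPM in WT stem-state cells and at 34.1 CPM in KO and 27.2 CPM in WT cycling cells, and passed 1.5-fold in neither state. Pfkl was at 15.8 CPM in KO and 10.5 CPM in WT stem-state cells (38 and 90 UMIs), with a ratio of 1.5 whose interval reached down to 1.00, and at 23.7 CPM in KO and 15.8 CPM in WT cycling cells, a ratio of 1.5 (1.07 to 2.13). The Pfkl call is weak: with each cell given equal weight its log2 ratio over the class was 0.42, under 1.5-fold, and 1 random thinning to 5000 UMIs per cell turned it to -0.26. The muscle-type subunit Pfkm was at 7.84 CPM in KO and 7.34 CPM in WT myogenic-like cells, and was called higher in stem-state cells, at 10.0 CPM in KO and 5.73 CPM in WT (24 and 49 UMIs, ratio 1.74, 1.02 to 2.90).

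Aldoa, Pgk1 and Pkm did not pass 1.5-fold. Aldoa, the aldolase of muscle, was at 799 CPM in KO and 654 CPM in WT myogenic-like cells (1.22, 1.18 to 1.26). It was at 704 CPM in KO and 593 CPM in WT stem-state cells (1.19, 1.12 to 1.26) and at 732 CPM in KO and 669 CPM in WT cycling cells (1.09, 1.04 to 1.16), and with the states weighted equally its log2 ratio was 0.10, beside 0.29 with the states as they were. Pgk1, which makes the first ATP of the pathway, was at 457 CPM in KO and 441 CPM in WT (1.04, 0.996 to 1.08). Within states Pgk1 lay on the other side of 1, at 388 CPM in KO and 408 CPM in WT stem-state cells (0.95, 0.883 to 1.02) and at 457 CPM in KO and 509 CPM in WT cycling cells (0.897, 0.840 to 0.958). Pkm, pyruvate kinase, was at 691 CPM in KO and 541 CPM in WT (1.28, 1.23 to 1.32). Pkm was, in stem-state cells, at 630 CPM in KO and 446 CPM in WT (1.41, 1.33 to 1.5) and, in cycling cells, at 748 CPM in KO and 779 CPM in WT (0.961, 0.912 to 1.01). The difference of its log2 ratios between those states was 0.56 (0.44 to 0.67). Tags at the 3′ end do not separate the PKM1 and PKM2 splice forms. The second Aldoa row held 1 UMI in KO and 0 in WT myogenic-like cells, and rows of Aldoa, Pgk1 and Ldha look-alike genes held at most 6 UMIs each over all cells of a library.

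The genes of lactate production and export were higher in KO. Ldha, which turns pyruvate into lactate, had 4513 UMIs and 536 CPM in KO and 3951 UMIs and 302 CPM in WT myogenic-like cells, a ratio of 1.77 (1.70 to 1.85). Stem-state cells had 354 CPM in KO and 219 CPM in WT (1.61, 1.49 to 1.75), and cycling cells 599 CPM in KO and 448 CPM in WT (1.34, 1.25 to 1.43), under 1.5-fold. Differentiating cells, too few to compare, had 629 CPM in KO and 494 CPM in WT. Ldha was higher in cycling than in stem-state cells within each library, and with the states weighted equally its log2 ratio was 0.44, under 1.5-fold, beside 0.82 with the states as they were. After thinning, 82.0% of KO and 61.8% of WT myogenic-like cells had a UMI of Ldha. Ldhb, the partner subunit found in oxidative tissue, was at 55.3 CPM in KO and 58.2 CPM in WT, and Ldha made up 90.6% of both in KO and 83.8% in WT. Within states Ldhb went opposite ways, at 70.0 CPM in KO and 49.97 CPM in WT stem-state cells (1.40, 1.16 to 1.68) and at 50.8 CPM in KO and 86.6 CPM in WT cycling cells (0.587, 0.489 to 0.703). The Ldha share was 83.5% (81.1 to 85.7) in KO and 81.4% (79.8 to 83.0) in WT stem-state cells, with overlapping intervals, and 92.2% in KO and 83.8% in WT cycling cells.

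Slc16a3, the exporter of lactate, had few UMIs. It had 87 UMIs and 10.3 CPM (8.27 to 12.7) in KO and 48 UMIs and 3.67 CPM (2.71 to 4.87) in WT myogenic-like cells, a ratio of 2.81 (2.0 to 4.09). It was at 6.25 CPM in KO and 2.81 CPM in WT stem-state cells (15 and 24 UMIs), and at 6.53 CPM in KO and 5.56 CPM in WT cycling cells (27 and 19 UMIs, ratio 1.18, 0.630 to 2.24). Differentiating cells held 45 of the 87 KO UMIs and 5 of the 48 WT UMIs. The other carrier Slc16a1 (MCT1) was at 28.1 CPM in KO and 17.2 CPM in WT (1.63, 1.36 to 1.97), and did not pass in stem-state cells (1.10, 0.768 to 1.56). It was called higher in cycling cells (1.80, 1.36 to 2.41). Slc16a3 made up 26.9% of both carriers in KO and 17.6% in WT over the class. In cycling cells the order was the other way, 14.5% in KO (27 of 186 UMIs) and 20.7% in WT (19 of 92 UMIs), with overlapping intervals.

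By state, 4 of the 10 genes were higher in KO stem-state cells (Hk1, Pfkl, Ldha and Slc16a3) and 1 was lower (Hk2), where 7.36% and 4.4% of 11763 genes were higher and lower. In cycling cells 2 were higher (Hk1 and Pfkl) and 0 lower, where 5.62% and 6.4% of 10848 genes were higher and lower. The median log2 ratio over the 10 genes was 0.44 in stem-state cells, beside 0.05 over all genes, and 0.13 in cycling cells, beside 0.01 over all genes. At a minimum of 10000 UMIs per cell, 1 gene was higher in each state.

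**Figure D4:**
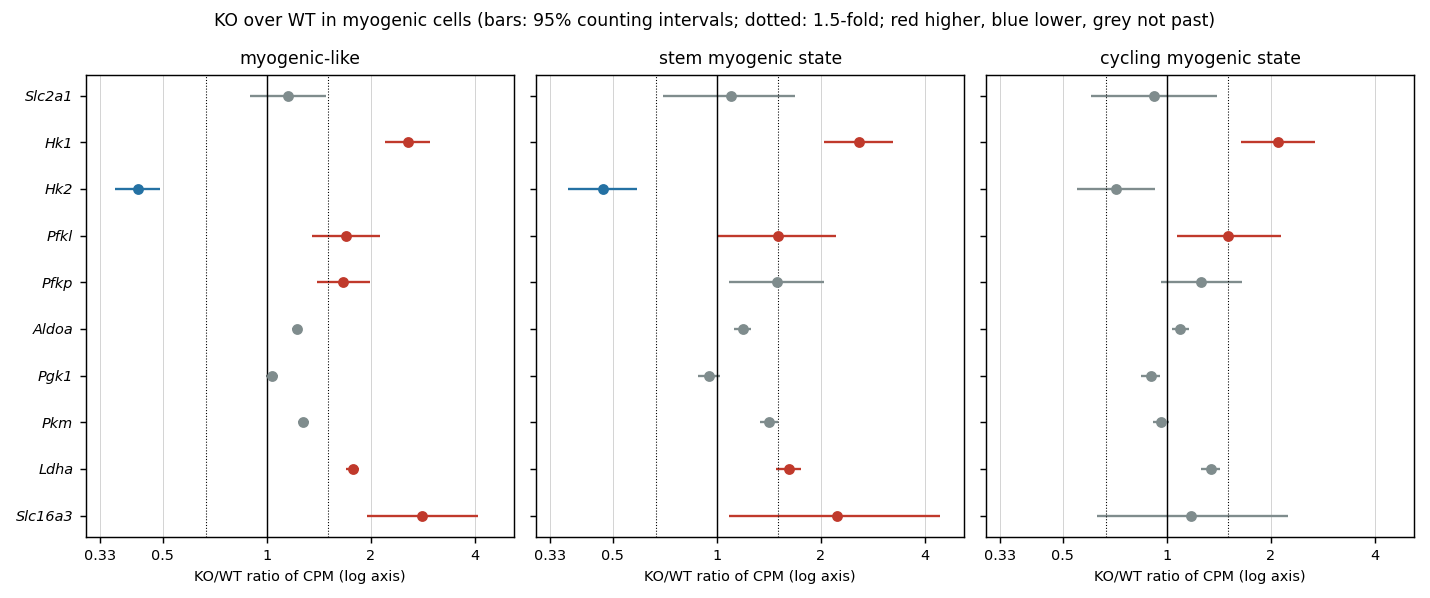
KO/WT ratio of CPM (log axis) for each of the 10 genes in all myogenic-like, stem-state and cycling cells, with 95% intervals, a line at 1 and dotted lines at 1.5-fold (red higher, blue lower, grey not past). Hk1 lies at 2.56, 2.57 and 2.09, Hk2 at 0.424, 0.469 and 0.714, and Pgk1 close to 1.

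Markers of the states also differed, and not all the same way. In stem-state cells Pax7 was at 170 CPM in KO and 195 CPM in WT, Myod1 at 115 CPM in KO and 31.9 CPM in WT, and Myog at 98.8 CPM in KO and 29.8 CPM in WT. Mymk was at 17.5 CPM in KO and 8.78 CPM in WT stem-state cells (42 and 75 UMIs). Acta1, a marker of differentiation and of muscle fibre, lay the other way there, at 52.5 CPM in KO and 69.6 CPM in WT. So did Ckm, a fibre marker, at 1.67 CPM in KO and 3.63 CPM in WT (4 and 31 UMIs). In cycling cells Myod1 was at 132 CPM in KO and 88.6 CPM in WT, and Acta1 at 70.6 CPM in KO and 25.1 CPM in WT. Myog in cycling cells was at 80.5 CPM in KO and 67.3 CPM in WT. Mymk lay the other way in cycling cells, at 13.3 CPM in KO and 20.2 CPM in WT. Over the myogenic-like class the 10 markers of mature muscle fibre, none at 0, summed to 2927 CPM in KO and 1400 CPM in WT. Differentiating cells held 8471 of the 8889 KO UMIs and 4608 of the 5289 WT UMIs of Acta1. The 6 erythroid markers summed to 610 CPM in KO and 34.5 CPM in WT, with 2 and 3 at 0, and in cycling cells to 1220 CPM in KO and 29.2 CPM in WT. In stem-state cells the erythroid sum was 21.7 CPM in KO and 37.4 CPM in WT, and there Hk1 had a ratio of 2.57 and Hk2 of 0.469. The 10 mural markers, none at 0 and with Des shared with the myogenic list, summed to 2675 CPM in KO and 1568 CPM in WT, to 2095 CPM in KO and 1352 CPM in WT stem-state cells, and to 2017 CPM in KO and 1188 CPM in WT cycling cells. The 9 tenocyte markers summed to 231 CPM in KO and 165 CPM in WT, and the 14 phagocyte markers, none at 0, to 391.7 CPM in KO and 366 CPM in WT. The part of these markers in the differences was not tested.

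Beyond the 10 genes, 9 further lists of carbohydrate metabolism were followed in myogenic-like cells, where 8.6% of all genes were higher and 8.96% lower. Several of the counts that follow, of 1 or 2 genes a list, are near or below those shares. Of 14 other glycolysis and lactate genes with enough UMIs (25 listed), 5 were higher in KO and 0 lower, with a median log2 ratio of 0.27. Eno3, the muscle enolase, was at 439 CPM in KO and 210 CPM in WT (2.09, 1.99 to 2.20), and Pgam2, the muscle phosphoglycerate mutase, at 48.0 CPM in KO and 22.3 CPM in WT (2.15, 1.84 to 2.5). In stem-state cells Eno3 was at 191 CPM in KO and 126 CPM in WT and Pgam2 at 25 CPM in KO and 11 CPM in WT. Eno1, the general enolase, was at 264 CPM in KO and 166 CPM in WT (1.59, 1.5 to 1.69). Slc16a1, given above, was the fourth, and Tpi1, triosephosphate isomerase, named after its value was seen, was at 348 CPM in KO and 228 CPM in WT (1.52, 1.45 to 1.60). Eno1 and Tpi1 passed in neither the stem nor the cycling state. Eno1b, listed apart from Eno1 and named after its value was seen, was called higher in stem-state cells. With the states weighted equally, the median over this list was 0.08. In stem-state cells alone it was 0.45, beside 0.05 over all genes. There 4 of 13 genes were higher and 0 lower, where 7.36% and 4.4% of all genes were higher and lower. In cycling cells the median was 0.06, beside 0.01 over all genes. There 2 of 13 were higher and 1 lower, where 5.62% and 6.4% of all genes were higher and lower.

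Of 14 genes of pyruvate entry into mitochondria, 1 was higher and 2 were lower, with a median log2 ratio of 0.12. Pdk4, a kinase that shuts off pyruvate dehydrogenase, was at 16.3 CPM in KO and 34.4 CPM in WT (0.473, 0.387 to 0.573), with 20.8 CPM in KO and 39.1 CPM in WT stem-state cells. Pdk2, a related kinase, was at 3.92 CPM in KO and 7.19 CPM in WT (0.545, 0.355 to 0.818), and did not pass in stem-state cells (0.850, 0.460 to 1.48). It was called lower in cycling cells, from 9 KO and 18 WT UMIs (0.414, 0.164 to 0.969). Pdk3, another kinase of this family, lay the other way, at 22.6 CPM in KO and 17.5 CPM in WT (1.29, 1.06 to 1.57), and was called higher in stem-state cells, at 27.5 CPM in KO and 17.8 CPM in WT (1.55, 1.14 to 2.08). Pcx, pyruvate carboxylase, was higher at 3.56 CPM in KO and 1.07 CPM in WT (30 and 14 UMIs).

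Targets of HIF outside glycolysis were mostly not past 1.5-fold. Of 16 such targets, 1 was higher and 4 were lower in KO, with a median log2 ratio of -0.09. Adm, adrenomedullin, was at 3.56 CPM in KO and 10.6 CPM in WT (0.335, 0.218 to 0.50), Ndrg1 at 36.9 CPM in KO and 67.6 CPM in WT (0.546, 0.478 to 0.622), and Ddit4, an inhibitor of mTOR signalling, at 66.7 CPM in KO and 115 CPM in WT (0.580, 0.525 to 0.639). P4ha2, named after its value was seen, was at 5.82 CPM in KO and 8.87 CPM in WT. Higd1a was the higher one, at 164 CPM in KO and 109 CPM in WT, and passed in neither state compared (1.34 and 1.27). In stem-state cells Ndrg1 was at 72.5 CPM in KO and 81.7 CPM in WT and Ddit4 at 123 CPM in KO and 134 CPM in WT, neither past 1.5-fold, while Adm was at 2.08 CPM in KO and 12.3 CPM in WT. In cycling cells 3 of 15 targets were lower and 2 higher, where 6.4% of all genes were lower and 5.62% higher. The lower ones were Ndrg1 (0.582, 0.460 to 0.735), Ddit4 (0.564, 0.474 to 0.671) and Adm (0.438, 0.233 to 0.797). The higher ones were Lox (1.82, 1.40 to 2.39) and Ero1l.

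Among 15 regulators of glycolysis, 1 was higher and 1 lower. Rptor, a subunit of the mTOR complex, was at 17.2 CPM in KO and 8.42 CPM in WT (2.05, 1.59 to 2.65), and Myc, an activator of glycolytic genes, at 31.9 CPM in KO and 51.2 CPM in WT (0.624, 0.540 to 0.720). Myc passed in neither the stem (0.810) nor the cycling state (0.741). Hif1a was at 112 CPM in KO and 81.1 CPM in WT and did not pass 1.5-fold. In the remaining lists, 0 of 3 genes of the phosphofructokinase-2 family passed, 1 of 11 genes of gluconeogenesis and glycogen was lower (Pck2, 14.2 CPM in KO and 21.5 CPM in WT), and 1 of 7 genes of the pentose phosphate pathway was higher (Rpia, 14.2 CPM in KO and 8.80 CPM in WT). Of 7 genes of the serine and glycerol branches 1 was higher (Psat1, 50.9 CPM in KO and 29.1 CPM in WT), as was 1 of 18 genes of the tricarboxylic acid cycle (Idh3a, 100.2 CPM in KO and 65.6 CPM in WT). Idh3a passed in neither state (1.17 and 1.13), Pck2 and Rpia did not pass in stem-state cells, and Psat1 did not pass in cycling cells. In cycling cells Pck2 was called lower (0.558, 0.393 to 0.787) and Rpia higher (1.91, 1.25 to 2.99). Psat1 was called higher in stem-state cells (1.56, 1.16 to 2.09).

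**Figure D5:**
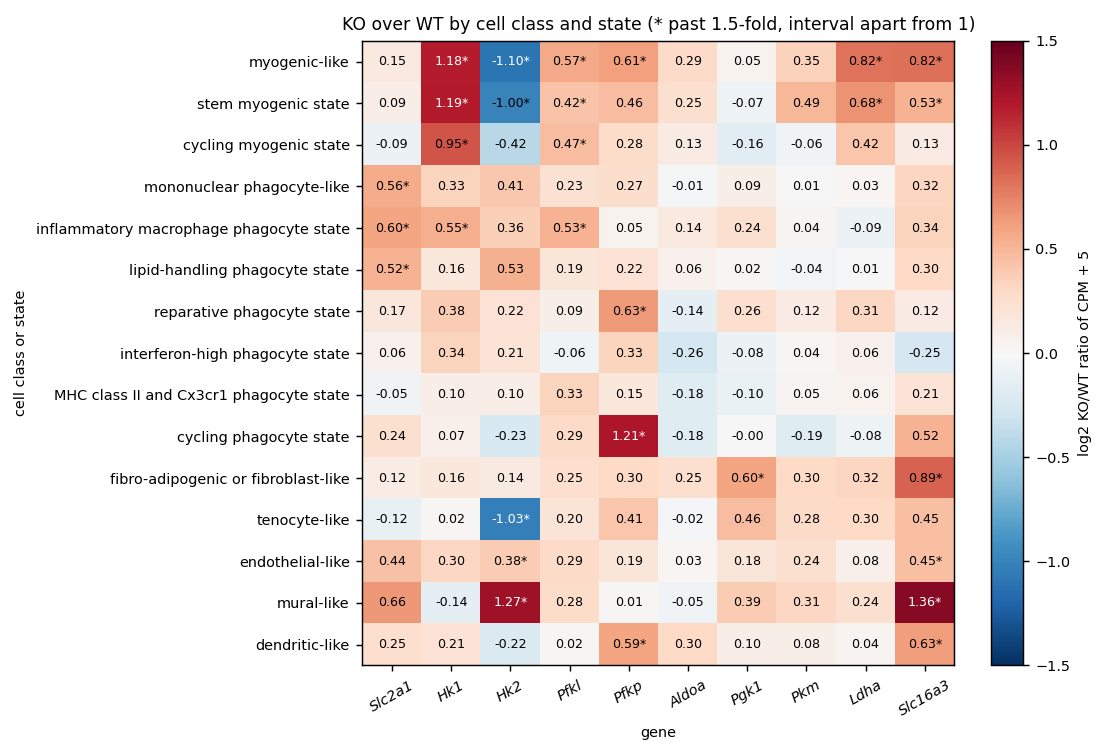
Log2 KO/WT ratio of CPM + 5 for the 10 genes (columns) in each class or state compared (rows), red above 0, blue below, with a star where the ratio is past 1.5-fold with its interval apart from 1. In the myogenic-like row Hk1 is at 1.18 and Hk2 at -1.10.

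Fewer of the 10 genes passed in other classes, but their median log2 ratio lay above that of all genes in each class compared. In fibroblast-like cells it was 0.27 beside 0.04 over all genes, and in endothelial-like cells 0.26 beside 0.07. In mural-like cells it was 0.30 beside 0.05, in tenocyte-like cells 0.24 beside 0.14, and in dendritic-like cells 0.15 beside 0.06. In phagocyte-like cells (3431 KO and 3376 WT cells), 1 of the 10 genes was higher and 0 lower, where 5.34% and 2.78% of 15528 genes were higher and lower, and the median log2 ratio was 0.25, beside 0.04 over all genes. The states of the class were unequal: 778 KO and 493 WT cells were in the inflammatory macrophage state and 453 KO and 1023 WT cells in the interferon-high state. The higher gene was Slc2a1, with 777 UMIs and 17.8 CPM in KO and 447 UMIs and 10.5 CPM in WT (1.70, 1.51 to 1.91). Hk1 was at 17.7 CPM in KO and 13.1 CPM in WT and Hk2 at 94 CPM in KO and 69.5 CPM in WT, with a ratio of 1.35 for both, and the Hk1 share was 15.8% in both libraries. Ldha was at 260 CPM in KO and 255 CPM in WT. The log2 ratio in myogenic-like cells differed from that in phagocyte-like cells by 0.92 (0.65 to 1.18) for Hk1, by -1.67 (-1.90 to -1.45) for Hk2 and by 0.80 (0.73 to 0.87) for Ldha, with the interval apart from 0 for 9 of the 10 genes and not for Pgk1.

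Phagocyte states differed among themselves. The median log2 ratio over the 10 genes lay below that of all genes in the interferon-high state (0.05 beside 0.07) and the cycling state (0.04 beside 0.11). It was 0.08 beside 0.06 in the MHC class II and Cx3cr1 state, and 0.29 beside 0.06 in the inflammatory macrophage state. It was 0.17 beside 0.05 in the lipid-handling state, and 0.20 beside 0.07 in the reparative state. In the inflammatory macrophage state Slc2a1 was at 48.8 CPM in KO and 30.6 CPM in WT (1.59, 1.35 to 1.88), Hk1 at 27.1 CPM in KO and 17.0 CPM in WT (1.59, 1.28 to 2.0), and Pfkl at 24.5 CPM in KO and 15.5 CPM in WT (1.58, 1.25 to 2.01), so 3 genes were higher there, where 6.07% of genes were higher and 2.24% lower. In the lipid-handling state 1 was higher, Slc2a1, at 12.6 CPM in KO and 7.28 CPM in WT, where 3.98% were higher and 1.65% lower. In the reparative and the cycling state it was Pfkp, at 24.6 CPM in KO and 14.1 CPM in WT, and at 60.3 CPM in KO and 23.2 CPM in WT, where 4.94% and 10.9% were higher and 2.03% and 3.77% lower. None of the 10 genes passed in the MHC class II and Cx3cr1 state or in the interferon-high state, where 4.31% and 5.42% were higher and 1.77% and 1.78% lower. The log2 ratio of Slc2a1 in the inflammatory macrophage state exceeded that in the MHC class II and Cx3cr1 state by 0.76 (0.24 to 1.28).

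In fibroblast-like cells 2 genes were higher, Pgk1 at 248 CPM in KO and 163 CPM in WT (1.53, 1.45 to 1.60) and Slc16a3 at 26.6 CPM in KO and 12.1 CPM in WT (2.20, 1.86 to 2.61), where 7.86% of genes were higher and 6.69% lower. The class joins clusters of unequal make-up, one with 312 KO and 575 WT cells and one with 419 KO and 96 WT cells. Within them the ratio of Pgk1 was 1.23 and 1.22, and that of Slc16a3 was 1.97 and 1.20. Summed, the 10 genes took 1944 CPM in KO and 1559 CPM in WT fibroblast-like cells, a ratio of 1.25 (1.23 to 1.27). The summed ratio within these clusters was 1.14 and 1.10. In dendritic-like cells Pfkp was at 108 CPM in KO and 70.3 CPM in WT (1.54, 1.31 to 1.81) and Slc16a3 at 29.1 CPM in KO and 17.1 CPM in WT (1.70, 1.23 to 2.37), where 6.14% were higher and 2.9% lower.

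Hk2 differed in direction between classes. In tenocyte-like cells it was the 1 lower gene, at 89.6 CPM in KO and 188 CPM in WT (0.476, 0.397 to 0.571), where 9.87% of genes were higher and 3.32% lower. In mural-like cells it was at 51.7 CPM in KO and 18.6 CPM in WT (2.79, 1.81 to 4.43), and Slc16a3 at 34.3 CPM in KO and 10.3 CPM in WT (3.33, 1.88 to 6.27), where 6.79% were higher and 4.86% lower. In endothelial-like cells Hk2 was at 3.37 CPM in KO and 1.44 CPM in WT (26 and 10 UMIs) and Slc16a3 at 13 CPM in KO and 8.18 CPM in WT (1.59, 1.13 to 2.24), where 5.48% were higher and 2.09% lower. Free RNA could give up to 1.08 CPM of Hk2 in KO and 0.698 CPM in WT endothelial-like cells, and the direction of Hk2 there turned under 3 other settings. Markers of other cell types differed in mural-like cells: the 12 fibroblast markers summed to 4050 CPM in KO and 2357 CPM in WT, the 10 endothelial markers to 1426 CPM in KO and 2520 CPM in WT, and the 6 erythroid markers to 18.4 CPM in KO and 4165 CPM in WT, with 1 fibroblast marker at 0 in each library, no endothelial one, and 4 erythroid ones in KO and 3 in WT. Their part in the mural-like values was not tested. The log2 ratio of Hk2 in myogenic-like cells lay below that in mural-like cells by -2.72 (-3.37 to -2.07), and differed from that in tenocyte-like cells by -0.17 (-0.50 to 0.16).

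Levels across the 7 classes compared, each of 50 or more cells per library, spread most for Hk2, by 61.7-fold in KO and 131-fold in WT between fibroblast-like cells at the top (208 CPM in KO, 189 CPM in WT) and endothelial-like cells at the bottom. Phagocyte-like cells at 94 CPM and tenocyte-like cells at 89.6 CPM did not differ beyond their intervals in KO, and fibroblast-like cells at 189 CPM and tenocyte-like cells at 188 CPM did not in WT. Myogenic-like cells stood at place 6 of 7 for Hk2 in KO and at place 5 in WT. For Hk1 they stood at place 2 in KO (56.2 CPM), between endothelial-like cells at 65.0 CPM and mural-like cells at 47.1 CPM, with overlapping intervals, and at place 4 in WT (22.0 CPM), between tenocyte-like cells at 22.8 CPM and fibroblast-like cells at 19.4 CPM, again with overlapping intervals. The other 9 genes spread by 1.67-fold to 7.0-fold. Ldha was highest in KO myogenic-like cells (536 CPM), with an interval that overlapped KO fibroblast-like cells (531 CPM), and WT myogenic-like cells (302 CPM) stood at place 6, above phagocyte-like cells. Pfkp was highest in dendritic-like cells and Pfkl in endothelial-like cells of both libraries, and Slc16a3 was highest in mural-like cells of KO and dendritic-like cells of WT, each overlapping the next class. Fewer than 50 cells per library were found for muscle fibre-like cells (10 KO and 5 WT), where Aldoa was at 7761 CPM in KO and 10587 CPM in WT.

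Profiles over the 20 clusters with at least 50 cells in each library, 40 sums in all, showed which of the 10 genes went together. Pearson's r of log2(CPM + 5) was 0.90 between Pkm and Pgk1 and 0.86 between Pkm and Aldoa, and -0.56 between Hk1 and Hk2. Against the mean of the other 9 genes, Ldha had the highest r, 0.78, and Hk2 the lowest, -0.16. The sums share 2 libraries and differ in depth, so these values describe the clusters. Among 6185 other genes, the mean profile was most like those of Eif3j1 (r = 0.89), Eprs (0.88), Txnl1 (0.88), Vcp (0.86), Bzw1 (0.86), Pafah1b1 (0.85), Tubb6 (0.85) and Psmd11 (0.84).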

How the data were processed

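Each library's deposited file holds whole counts of UMIs per gene and barcode, made by the authors from reads of 10x Genomics 3′ libraries. The submitters' processing notes name STAR 2.7.8a, STARsolo 2.7.9a, Seurat 4.0.1 and GRCm38. The annotation release and strand setting were not given there. Barcodes with at least 5000 UMIs, at least 300 genes and at most 10% mitochondrial UMIs were kept (6779 KO, 6705 WT). Scrublet's own threshold marked 0 doublets in both libraries; instead, barcodes with the top scores were left out, 0.8% per 1000 barcodes (368 KO, 360 WT). Cells were clustered with scanpy 1.11.5 and leidenalg 0.10.2 on 2000 variable genes, without the 10 genes and the metabolic lists, using 30 components, 15 neighbours and Leiden resolution 1 (0.2 within myogenic cells). Clusters were named from fixed markers by a scoring rule chosen after the data were seen. UMIs were summed per class and scaled to CPM. Poisson, conditional binomial and Clopper-Pearson intervals at 95% cover counting error only, and with 1 library per group no test was possible. Genes with at least 20 UMIs in both sums together and classes of 50 or more cells per library were compared. The calculation was tested on simulated counts that held counting error only, with no spread between cells or mice. The members and lists were chosen with earlier results of these data known.

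The genes named are the 10 genes, genes of the other lists past 1.5-fold in the myogenic-like class or a state of it (at most 5 a list, by size of log2 ratio), and the 8 genes with the most similar profile among genes with at least 50 CPM in a sum. Alternatives changed the UMI minimum, doublets, mitochondrial limit, variable genes, resolution, scaling, free RNA, weights of cells and states, count filter, fold and thinning. Other software was Python 3.11.15, numpy 2.4.6, scipy 1.17.1 and pandas 2.3.3.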

Additional observations from a re-analysis of the deposited data

Results flagged for a closer look

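Hk2 stood out because its KO/WT ratio lay on opposite sides of 1 in different classes: 0.424 in myogenic-like and 0.476 in tenocyte-like cells, against 2.35 in endothelial-like and 2.79 in mural-like cells. With 1 library per group, whether these classes differ across mice was not tested. The endothelial-like value rests on 26 KO and 10 WT UMIs.

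Ldha was also higher in myogenic-like barcodes that the report leaves out, those with at least 2000 but under 5000 UMIs. The KO/WT ratio was 1.72 (1.11 to 2.75), from 106 UMIs in 74 KO barcodes and 26 UMIs in 29 WT barcodes. In the same barcodes C1qa was at 649 CPM in KO and 233 CPM in WT, Pax7 at 93.9 CPM in KO and 243 CPM in WT, and Myog at 943 CPM in KO and 526 CPM in WT. The part of these markers in the result was not tested.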

How the results depend on the processing

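Over 90 single-gene results and 1000 values under other settings, 911 lay within the counting error of the reported value and 83 moved beyond it. The sign changed in 61 of the 1000, of which 6 belong to genes called past 1.5-fold and are given here. Hk1 in myogenic-like cells ran between log2 ratios of 1.04 and 1.40, Hk2 between -1.21 and -0.75, and Ldha between 0.44 and 0.99. At a minimum of 10000 UMIs, 1 gene was higher in stem-state cells, 1 was higher and 1 lower in cycling cells, and 2 were higher in phagocyte-like cells. In cycling cells 1 gene was lower at a minimum of 2000 UMIs and with no doublets removed. In cycling cells 1 gene was higher with metabolic genes kept among the variable genes, with scaling to the median gene, with totals that leave out mitochondrial and ribosomal protein genes, and with free RNA subtracted. At 2-fold, 2 genes were higher in myogenic-like and in stem-state cells, 1 in cycling and 0 in phagocyte-like cells. With every cell thinned to 5000 UMIs, 0 genes were lower in stem-state cells, and the median log2 ratio was -0.073 in cycling cells and 0.11 in phagocyte-like cells. Pfkl reversed under that thinning, to -0.26 in myogenic-like, -0.40 in stem-state and -0.70 in cycling cells, whereas the expected thinned share of myogenic-like cells with a Pfkl UMI was 7.57% in KO and 5.42% in WT. Hk2 in endothelial-like cells reversed to -0.83 at 10000 UMIs, -0.23 with no doublets removed and -0.42 with metabolic genes kept. The percent of stem-state cells with an Hk1 UMI, KO minus WT, was -0.42 percentage points in 1 thinning to 1000 UMIs, where the expected shares were 5.17% in KO and 2.01% in WT. The cause was not tested. The C1q sub-cluster and the single fibroblast clusters were alternatives chosen after seeing the data. No paired analysis was possible because each group has 1 library.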

Other observations

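Phagocyte-like cells held further metabolic genes that were higher in KO, named here after their values were seen. Of 16 HIF targets outside glycolysis 4 were higher and 0 lower, with a median log2 ratio of 0.20, beside 5.34% higher, 2.78% lower and a median of 0.04 over all genes. Vegfa, a growth factor for blood vessels, was at 44.4 CPM in KO and 17.9 CPM in WT (2.48, 2.28 to 2.7), and Ndrg1 at 39.9 CPM in KO and 26.3 CPM in WT (1.52, 1.41 to 1.64). Lox, lysyl oxidase, was at 4.30 CPM in KO and 2.27 CPM in WT, and P4ha2 at 1.49 CPM in KO and 0.984 CPM in WT. By state, Vegfa was called higher in each phagocyte state compared except the cycling one. Ndrg1 was called higher in the cycling state only, and P4ha2 in the inflammatory macrophage state only. Lox was called higher in the inflammatory macrophage, interferon-high, and MHC class II and Cx3cr1 states. Of 17 other glycolysis and lactate genes 4 were higher and 0 lower. Ldhb was at 45.9 CPM in KO and 27.5 CPM in WT (1.67, 1.55 to 1.79), and the glucose transporter Slc2a3 at 1.90 CPM in KO and 1.01 CPM in WT (83 and 43 UMIs). Ldhb was called higher in the inflammatory macrophage, lipid-handling, reparative and interferon-high states and lower in the cycling state. Slc2a3 was called higher in the interferon-high state only. The part of the unequal state make-up in these class values was not tested.

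Within 500 kb of Hk1, 13 other genes had enough UMIs in myogenic-like cells, of which 0 were higher and 3 lower in KO, beside 8.6% higher and 8.96% lower among all genes. One of the lower ones is Hk1os, which may not be separable from Hk1. Near Hk2, 2 of 16 were higher, a share near that of all genes, and 0 lower: Pole4, at 59.8 CPM in KO and 37.9 CPM in WT, and Dqx1, at 9.26 CPM in KO and 4.44 CPM in WT.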
